A study of Mus musculus domesticus and Mus musculus molossinus with 8 samples.

Results

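The genes described here are the nuclear-encoded genes of the mitochondrial respiratory chain and ATP synthase. They were taken by name from the deposited gene tables: symbols beginning with Ndufa, Ndufb, Ndufc, Ndufs or Ndufv and a digit, Sdha to Sdhd, symbols beginning with Uqcr, Cox4 to Cox8, and symbols beginning with Atp5. The pattern took 85 of 23284 genes, of which 37 are named for complex I, 4 for complex II, 8 for complex III, 19 for complex IV and 17 for complex V. By what the genes are known to encode, 74 are widely expressed subunits, 8 are isoforms restricted to a few tissues (Cox4i2, Cox6a2, Cox6b2, Cox7a1, Cox7b2, Cox8b, Cox8c and Ndufa4l2), and 3 carry a matching name without being subunits: Cox4nb, now called Emc8, Atp5s, now Dmac2l, and Atp5sl, now Dmac2. Ndufa4 is counted here with complex I after its name, although its protein is now assigned to complex IV.

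The study sequenced polyadenylated RNA of 4 mice aged 8 weeks, taking liver and thymus from each. The groups were MSM/Ms (MSM) mice injected intraperitoneally with 1.5 µg of MegaFasL, untreated MSM mice, C57BL/6 (B6) mice injected in the same way, and untreated B6 mice. MegaFasL is a multimerised form of Fas ligand, and how long after injection the organs were taken is not stated in the labels. MSM is an inbred strain derived from Japanese wild mice, whereas B6 is the strain behind the mouse reference genome to which reads of both strains were aligned. Each strain and treatment was 1 mouse and each combination with tissue 1 library, so that no combination of strain and treatment was replicated. Liver and thymus came from the same mouse, which makes liver minus thymus a comparison within 4 mice.

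The respiratory chain passes electrons from NADH (complex I) and succinate (complex II) through complex III to oxygen at complex IV, and complex V uses the resulting proton gradient to make ATP. Most of its subunits are encoded in the nucleus, a few in the mitochondrial genome. Liver parenchyma is rich in mitochondria, whereas the thymus consists mostly of small lymphocytes with little cytoplasm. The 13 mitochondrially encoded subunit genes had no row under their symbols in the tables and were not analysed here.

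Levels are in FPKM (fragments per kilobase of transcript scaled to library size), which the authors computed. In the livers, all 10 hepatocyte markers (Alb, Apoa1 and others) summed to 102521 to 138814 FPKM, against 42.1 to 3040 FPKM in the thymi. Of the 10 thymocyte markers, Cd1d1 was higher in liver (32.4 to 164 FPKM in the livers and 1.96 to 12.3 FPKM in the thymi). The other 9 (Rag1, Cd8a and others) summed to 4.17 to 33.6 FPKM in the livers, highest in the untreated B6 liver, and 1095 to 1946 FPKM in the thymi. Low values read back to about 1.45 to 1.66 fragments per FPKM and kilobase in the livers and 2.57 to 3.15 in the thymi, so that on a transcript of 500 bases 1 fragment stood for 1.20 to 1.38 FPKM in the livers and 0.635 to 0.778 FPKM in the thymi. The untreated MSM thymus stood apart from the other thymi. Its 8 brown fat markers summed to 1060 FPKM, against 101 to 138 FPKM in the 3 other thymi. Of these sums, Fabp4 held 677 FPKM, against 77.5 to 103 FPKM, and Ucp1 219.8 FPKM, against 7.81 to 13.7 FPKM. The 12 striated muscle markers of the untreated MSM thymus summed to 119 FPKM, against 4.95 to 12.03 FPKM, and its hepatocyte markers to 3040 FPKM, against 42.1 to 210 FPKM. The counts of liver minus thymus calls and the medians of the thymus strain and interaction fits are given also without this library or its mouse. Values of single genes are given with it only, unless stated.

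Nearly all subunit genes were expressed throughout: 72 of 74 reached 10 FPKM in all 8 libraries. The exceptions were Ndufa11, a membrane subunit of complex I, at 4.36 to 14.1 FPKM, and Ndufs5, described below, which was near 0 in 5 libraries. The median subunit level was 176 FPKM in the injected MSM liver, 166 FPKM in the untreated MSM liver, 151 FPKM in the injected B6 liver and 147 FPKM in the untreated B6 liver. In the thymi it was 54.4 FPKM in the injected MSM mouse, 80.0 FPKM in the untreated MSM mouse, 48.1 FPKM in the injected B6 mouse and 50.2 FPKM in the untreated B6 mouse. All 4 livers lay above all 4 thymi. The 85 genes took 2.44% to 2.54% of the FPKM sum in the livers, 1.54% to 1.61% in 3 thymi, and 2.72% in the untreated MSM thymus.

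**Figure D1:**
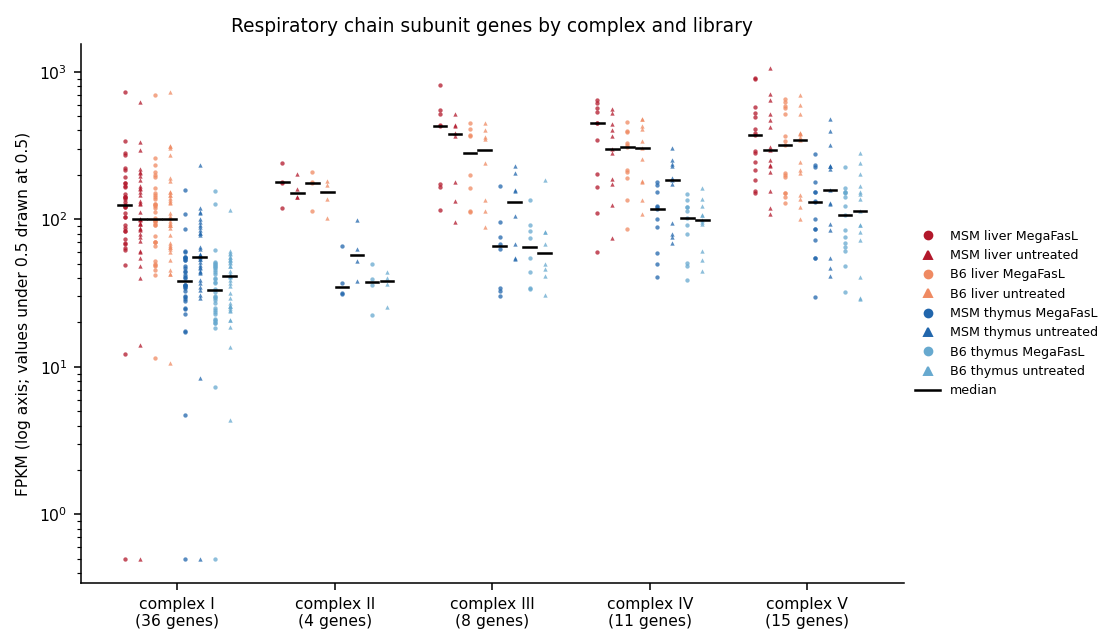
FPKM (log axis) of the 74 widely expressed subunit genes by complex. Each column is 1 library, each point 1 gene and each bar the median, with livers left of thymi. In every complex the liver columns sit above the thymus columns, and among the thymi the untreated MSM library has the highest medians.

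Median levels by complex ran in a similar order in both tissues. In the untreated B6 liver the median was 99.9 FPKM for the 36 subunit genes named for complex I, 154 FPKM for complex II, 294 FPKM for complex III, 302 FPKM for complex IV and 345 FPKM for complex V. In the untreated B6 thymus the medians were 41.1 FPKM for complex I, 38.4 FPKM for complex II, 59.3 FPKM for complex III, 99.7 FPKM for complex IV and 114 FPKM for complex V. The highest mean levels over the 8 libraries belonged to Atp5k (551 FPKM), the e subunit of ATP synthase, and Atp5b (464 FPKM), its catalytic beta subunit. Within complex I the highest were Ndufa4 (425 FPKM) and Ndufa3 (199.6 FPKM), within complex II Sdhb (137 FPKM) and Sdha (104 FPKM), within complex III Uqcr11 (310.5 FPKM) and Uqcrh (294 FPKM), and within complex IV Cox4i1 (332 FPKM) and Cox7c (329 FPKM). Of the 85 transcripts, for each gene the shortest of those with the longest coding sequence, 32 are shorter than 600 bases. At such lengths FPKM depends on how the fragment length is corrected for. The order of the 74 subunit genes by level was similar in both tissues (Spearman's rho 0.90 between mean liver and mean thymus level, n = 74 genes of the same 8 libraries, as a description).

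The first comparison asked how the chain differs between liver and thymus of the same mouse. Genes of all 5 complexes were higher in liver: of 81 members that averaged 1 FPKM or more in either tissue, 72 passed the test as higher and 2 as lower in liver. The background in this comparison was 28.6% of 12880 genes called higher and 32.1% called lower (limma on log2(FPKM + 1) with mouse as block, Benjamini-Hochberg adjusted p under 0.05 over all genes). The 2 called lower were isoforms listed at 0 in every liver, which entered the test only through their thymus levels. Among the 74 subunits, 71 were higher and none lower, with a median difference of 1.49 on the log2 scale, whereas the median over all genes tested was -0.13. In 68 of the 74, every liver lay above every thymus, against 26.3% of all genes tested, and in none did every liver lie below every thymus, against 29.9%. The 6 with overlap were Atp5g2, Cox7a2l, Ndufc1, Ndufs5, Ndufs7 and Uqcr10. In bulk tissue, fewer cells of a type and less RNA per cell cannot be told apart. Without the untreated MSM mouse, 73 members were higher and 2 lower.

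The size of this difference depends on the scale. The FPKM of a liver library summed to 634893 to 768248 and those of a thymus library to 313981 to 350415, so a rescaling to a common sum moves all genes down in liver, their median difference to -1.10. On that scale 19 of 81 members were higher and 5 lower, against 16.2% of all genes higher and 56.6% lower, and the median subunit difference was 0.43. Leaving Lars2, Rn45s and small RNA genes out of the sum gave 12 members higher and 7 lower, against 14.8% and 60.8% of all genes, with a median of 0.23 for the subunits and -1.31 for all genes. Measured from the median of all genes, the subunits were 1.62 higher as deposited and 1.53 and 1.54 higher on the rescaled scales, and 74, 73 and 73 of the 74 lay above that median. The 12 members called higher on all 3 scales were Uqcrq, Uqcr11, Uqcrb and Uqcrfs1 of complex III, Sdha, Sdhc and Sdhd of complex II, Ndufa4, Ndufa6, Ndufb4 and Ndufb9 by name of complex I, and Atp5g1 of complex V. For all genes the share on all 3 scales was not counted, and on the last scale alone it was 14.8%. The 12 of 81 members are near that share, so their count does not set the members apart from all genes. By complex, the calls after rescaling to a common sum were 8 of 36 higher for complex I, 4 of 4 for complex II, 4 of 8 for complex III, none of 11 higher and 1 lower for complex IV, and 3 of 15 higher and 1 lower for complex V. Directions below are those of the deposited scale, and the 10 and 17 members whose sign turns under the first and the second rescaling are listed with the processing.

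**Figure D2:**
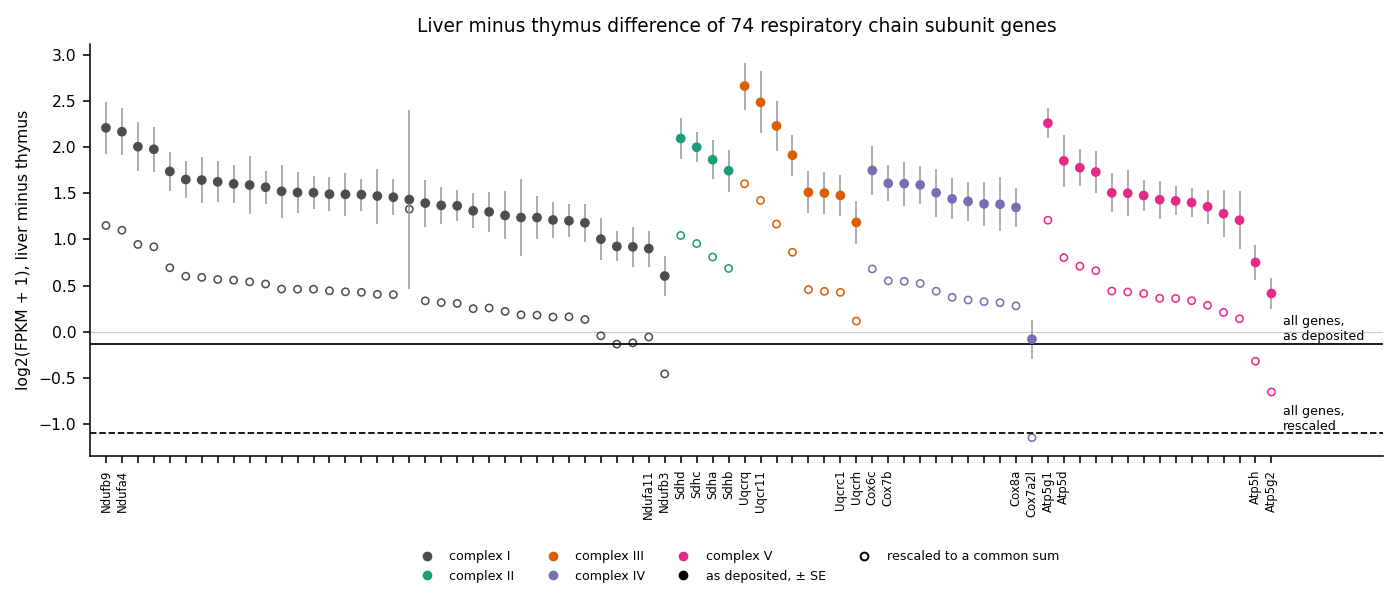
Liver minus thymus difference in log2(FPKM + 1) of each of the 74 subunit genes, ordered by size within its complex, with the 2 genes at either end of each complex named. Filled points with standard errors (4 mice) are the deposited scale, open points the values rescaled to a common sum, and lines the medians of all genes tested, -0.13 and -1.10. All filled points but Cox7a2l lie above 0, and most open points lie well above the dashed line.

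In complex I, 35 of 36 subunit genes were higher in liver, with a median of 1.46. The largest difference was that of Ndufb9, an accessory subunit, which had 337, 294, 208 and 313 FPKM in the livers and 60.1, 119.99, 44.3 and 42.0 FPKM in the thymi of the injected MSM, untreated MSM, injected B6 and untreated B6 mouse, a difference of 2.21 ± 0.28 (SE, 4 mice; limma, adjusted p = 0.00103). The same order of mice holds in the lists of 4 values that follow. Ndufa4 had 725, 622, 691 and 727 FPKM in the livers and 158, 232, 128 and 116 FPKM in the thymi, a difference of 2.17 ± 0.25 (adjusted p = 0.000717). Ndufa6, an accessory subunit of the matrix arm, differed by 2.00 ± 0.26, with 274, 218, 259 and 303 FPKM in the livers and 61.0, 101, 48.1 and 58.4 FPKM in the thymi. In each of these genes every liver lay above every thymus.

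The core of complex I, which carries the flavin and the iron-sulphur clusters, was higher in liver too. Ndufv1, the NADH-binding subunit, differed by 1.74, Ndufs1 by 1.298, Ndufs3 by 1.49, Ndufs7 by 1.26, Ndufs8 by 1.20 and Ndufv2 by 1.00, all past the threshold. Ndufb4, another accessory subunit, differed by 1.98 ± 0.24, with 217, 195, 192 and 273 FPKM in the livers and 40.8, 84.5, 47.1 and 54.2 FPKM in the thymi. Ndufa3, a small membrane subunit, was uneven among the thymi and highest in the injected B6 mouse, with 281, 333, 234 and 314 FPKM in the livers and 109, 111, 155 and 61.0 FPKM in the thymi (1.47 ± 0.30). The smallest differences in complex I were those of Ndufb3 (0.60 ± 0.21, adjusted p = 0.0485), Ndufa11 (0.90 ± 0.19), Ndufs4 (0.92 ± 0.22) and Ndufa12 (0.92 ± 0.16). Ndufb3 had 69.5, 61.3, 113 and 86.8 FPKM in the livers and 55.5, 53.7, 50.4 and 51.0 FPKM in the thymi. Its thymi were the most even of the set, while its livers were lower in both MSM mice than in both B6 mice.

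All 4 genes of complex II, succinate dehydrogenase, were higher in liver, by 1.74 to 2.09. Sdhd, a membrane anchor, had 176, 142, 179 and 171 FPKM in the livers and 31.1, 52.3, 36.1 and 36.4 FPKM in the thymi (2.09 ± 0.22, adjusted p = 0.000458). Sdha, the flavoprotein, had 180.2, 160.0, 175 and 136 FPKM in the livers and 37.2, 62.9, 39.2 and 40.3 FPKM in the thymi (1.86 ± 0.21, adjusted p = 0.000611). The iron-sulphur subunit Sdhb had 239.6, 204, 209.96 and 182 FPKM in the livers and 65.6, 98.4, 49.7 and 44.0 FPKM in the thymi (1.74 ± 0.23). In these 3 genes the lowest liver was above the highest thymus. The other anchor, Sdhc, had 119, 142, 114 and 102 FPKM in the livers and 31.9, 38.1, 22.5 and 25.5 FPKM in the thymi (2.00 ± 0.16). All 4 genes had their highest thymus level in the untreated MSM mouse.

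Complex III held the largest subunit differences, and all 8 of its genes were higher in liver. Uqcrq, a small subunit, had 435, 384, 452 and 404 FPKM in the livers and 68.1, 105, 55.0 and 46.0 FPKM in the thymi, the largest difference among the 74 subunits (2.66 ± 0.25, adjusted p = 0.00033). Uqcr11 had 811, 519, 412 and 362 FPKM in the livers and 63.2, 159, 74.9 and 81.9 FPKM in the thymi (2.48 ± 0.34), and Uqcrb had 520.5, 427, 373 and 449.6 FPKM in the livers and 75.8, 157, 91.7 and 68.5 FPKM in the thymi (2.23 ± 0.27). Uqcrfs1, the Rieske iron-sulphur protein, differed by 1.91. The core proteins Uqcrc1 and Uqcrc2 differed by 1.48 ± 0.22 and 1.51 ± 0.23. The hinge protein gene Uqcrh had the smallest difference of the complex, 1.18 ± 0.23, with 552, 368, 365 and 349 FPKM in the livers and 168, 231, 135 and 184 FPKM in the thymi.

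In complex IV, 10 of 11 widely expressed genes were higher in liver, within a narrow range of 1.35 to 1.75. Cox6c had 639, 440.1, 455 and 479.9 FPKM in the livers and 124, 231, 120.3 and 138 FPKM in the thymi (1.75 ± 0.27, adjusted p = 0.00198). Cox4i1, the largest of the nuclear subunits, had 529.7, 564, 388 and 427 FPKM in the livers and 178, 302, 147 and 123 FPKM in the thymi (1.41 ± 0.21). Cox7c, a small membrane subunit, had 567, 525, 397 and 476 FPKM in the livers and 152, 237, 114 and 163 FPKM in the thymi (1.59 ± 0.20), and Cox7b had 166, 174, 136 and 178 FPKM in the livers and 59.0, 75.8, 39.0 and 44.3 FPKM in the thymi (1.61 ± 0.19). Cox7a2l was the exception. It encodes a protein that joins complexes III and IV into supercomplexes, of which B6 mice are known to carry a shortened form. Cox7a2l had 60.1, 75.03, 86.2 and 109 FPKM in the livers and 100.1, 69.4, 79.7 and 96.2 FPKM in the thymi, so that the tissues overlapped fully (-0.08 ± 0.21, adjusted p = 0.758), and on the scale rescaled to a common sum it was the lowest subunit in liver, at -1.15.

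In complex V, 14 of 15 subunit genes were higher in liver. The catalytic subunits Atp5a1 and Atp5b differed by 1.43 ± 0.21 and 1.28 ± 0.26. Atp5b had 897, 648, 564 and 517 FPKM in the livers and 226, 394, 228 and 239.9 FPKM in the thymi. Atp5k, the e subunit of the membrane part, held the highest single value of the set, in the untreated MSM liver, with 911, 1054, 654 and 594 FPKM in the livers and 276, 481, 154 and 283 FPKM in the thymi (1.50 ± 0.25). The difference of Atp5d, the delta subunit of the central stalk, was 1.85 ± 0.28, with 185, 108, 142 and 101 FPKM in the livers and 29.9, 54.9, 32.1 and 29.5 FPKM in the thymi. Parts of the peripheral stalk were unlike in size: Atp5o differed by 1.50 ± 0.21, Atp5f1 by 1.47 ± 0.17 and Atp5j by 1.42 ± 0.16, and Atp5h, the d subunit, by 0.75 ± 0.19. Atp5h had 383, 308, 317 and 385 FPKM in the livers and 235, 229.7, 163 and 204 FPKM in the thymi, the highest thymus level of that stalk.

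The 3 genes for the c ring of ATP synthase, through which protons pass, differed between the tissues in unlike ways. Their last 237 coding bases (GENCODE M21, mm10) are shown because all 79 codons there, the stop included, encode the same residues in the 3 genes, while 64 bases are not the same in all 3. The capitals mark those bases. Atp5g1 lies at chr11:96068852-96075670, Atp5g2 at chr15:102662864-102672352 and Atp5g3 at chr2:73908447-73911326, all on the minus strand.
Atp5g1: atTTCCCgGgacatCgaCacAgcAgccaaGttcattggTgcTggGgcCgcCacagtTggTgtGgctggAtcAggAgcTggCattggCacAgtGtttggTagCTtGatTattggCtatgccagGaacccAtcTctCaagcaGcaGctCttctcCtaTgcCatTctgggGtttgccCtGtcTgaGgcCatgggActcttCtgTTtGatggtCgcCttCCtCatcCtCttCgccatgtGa
Atp5g2: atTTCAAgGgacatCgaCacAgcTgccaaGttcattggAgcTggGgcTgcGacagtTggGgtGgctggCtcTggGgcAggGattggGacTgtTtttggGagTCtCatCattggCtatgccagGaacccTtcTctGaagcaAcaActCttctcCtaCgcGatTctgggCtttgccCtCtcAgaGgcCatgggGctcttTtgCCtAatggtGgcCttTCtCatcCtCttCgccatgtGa
Atp5g3: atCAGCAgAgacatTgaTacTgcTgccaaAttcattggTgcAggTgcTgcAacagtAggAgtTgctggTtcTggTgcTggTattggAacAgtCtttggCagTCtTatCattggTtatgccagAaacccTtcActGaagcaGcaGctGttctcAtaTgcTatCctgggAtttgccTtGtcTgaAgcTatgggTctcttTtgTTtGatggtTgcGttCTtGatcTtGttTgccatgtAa
Atp5g1 had 292, 208, 200.03 and 147 FPKM in the livers and 54.9, 41.6, 48.2 and 28.7 FPKM in the thymi (2.26 ± 0.16, adjusted p = 0.000127). Atp5g3 had 491, 473, 516 and 345 FPKM in the livers and 153, 158, 106 and 114 FPKM in the thymi (1.78 ± 0.20). Atp5g2 had 150.2, 155, 129 and 138 FPKM in the livers and 133, 127, 84.7 and 91.3 FPKM in the thymi, and its difference of 0.41 ± 0.17 did not pass the threshold (adjusted p = 0.0773) and turned to -0.65 after rescaling to a common sum. Of the summed FPKM of the 3 genes, Atp5g2 made up 15.2% to 21.9% in the livers and 35.4% to 39.0% in the thymi, whereas Atp5g1 made up 23.4% to 31.3% in the livers and 12.2% to 20.2% in the thymi. Each of these shares was free of overlap between the tissues. All 50-base words of the Atp5g2 transcript taken here (441 bases, coding length 438), and 66.0% of those of Atp5g1, also occur in another gene (mostly the pseudogenes Gm10175 and Gm10039), so that part of these levels is uncertain. Transcripts of Atp5g2 with longer untranslated ends were not compared. In all, 6 members share over 50% of such words with other genes. Besides Atp5g1 and Atp5g2 they are Atp5h (66.6%), Atp5l (68.5%), Ndufa12 (53.8%) and Cox7c (52.95%), whose levels are uncertain in the same way.

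Of the 8 tissue-restricted isoforms, 3 were listed at 0 throughout and the others were unlike each other. Cox8b, the form of heart, skeletal muscle and brown fat, was listed at 0 in all 4 livers and had 1.99, 8.80, 11.04 and 21.6 FPKM in the thymi of the injected MSM, untreated MSM, injected B6 and untreated B6 mouse. Cox6b2, known as a testis form, was listed at 0 in the livers too and had 0.920, 1.02, 7.54 and 3.99 FPKM in the thymi. Both genes reached the filter only through the thymus, so their direction in the test was set by it and is given as levels only. The 6 testis markers were listed at 0 in every library but the injected B6 thymus, where they summed to 0.867 FPKM. Cox4i2, Cox7b2 and Cox8c were listed at 0 in all 8 libraries. The ubiquitous partners Cox8a, Cox6b1 and Cox6a1 were at 298 to 343, 310.3 to 618 and 321 to 446 FPKM in the livers and 92.3 to 174, 103 to 250.5 and 107 to 192 FPKM in the thymi.

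Cox7a1 and its widely expressed partner Cox7a2 behaved differently. Cox7a1, the form of heart, skeletal muscle and brown fat, had 7.76, 14.1, 10.2 and 7.42 FPKM in the livers and 5.87, 212, 1.81 and 1.77 FPKM in the thymi. The value of the untreated MSM thymus stood far above all others, and there Cox7a1 made up 72.8% of the FPKM of the pair, against 2.82% to 12.6% in the other 7 libraries. A stretch of 120 coding bases of both genes is shown to make plain that they can be told apart. They differ at 35 of the 120 bases (in capitals), 30 of 40 codons encode the same residue, and the longest run the coding sequences share is 12 bases. Cox7a1 lies at chr7:30184144-30186078 on the plus strand (coding bases 103 to 222) and Cox7a2 at chr9:79755361-79759878 on the minus strand (coding bases 82 to 201).
Cox7a1: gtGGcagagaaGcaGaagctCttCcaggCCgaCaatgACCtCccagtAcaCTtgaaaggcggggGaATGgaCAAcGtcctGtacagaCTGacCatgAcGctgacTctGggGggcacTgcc
Cox7a2: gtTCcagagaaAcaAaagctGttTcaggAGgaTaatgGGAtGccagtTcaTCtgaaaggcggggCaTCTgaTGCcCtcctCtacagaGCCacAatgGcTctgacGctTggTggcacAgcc
In the same library Ucp1, the uncoupling protein of brown fat, had 219.8 FPKM, against 8.23, 7.81 and 13.7 FPKM in the injected MSM, injected B6 and untreated B6 thymi. Cidea, another brown fat gene, had 48.6 FPKM there against 1.00, 4.62 and 3.32 FPKM, and Ckm, the muscle creatine kinase, 15.8 FPKM against 0, 0 and 0.957 FPKM. Cox6a2, a heart and muscle form, had 4.65 FPKM in this thymus, 0.703 FPKM in the injected MSM thymus and was listed at 0 elsewhere, and Ndufa4l2 had 1.86 FPKM in this thymus and was listed at 0 elsewhere. Cox8b was also higher in this thymus than in the injected MSM thymus, but it was higher still in both B6 thymi. The part of brown fat and muscle in these values was not tested.

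**Figure D3:**
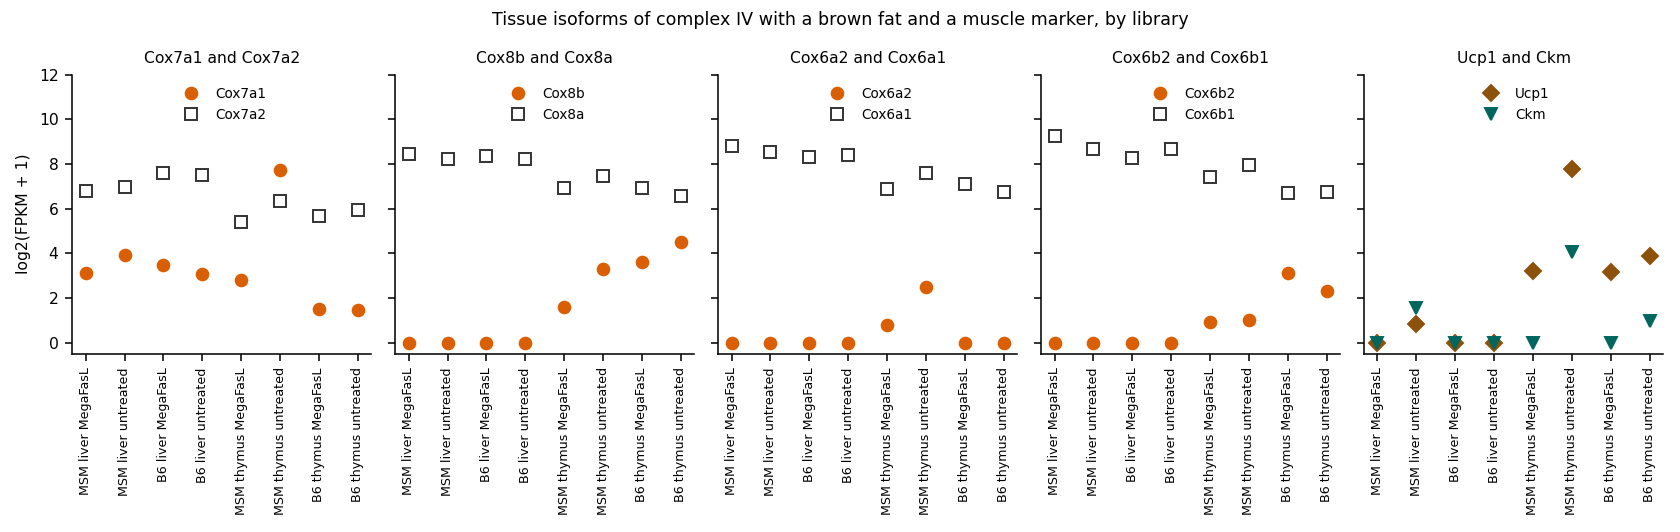
log2(FPKM + 1) in each library of 4 restricted complex IV isoforms (filled circles) with their widely expressed partners (open squares), and of the brown fat gene Ucp1 and the muscle gene Ckm. Cox7a1 exceeds Cox7a2 only in the untreated MSM thymus, the library with 219.8 FPKM of Ucp1, while Cox8b and Cox6b2 are highest in the B6 thymi.

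The untreated MSM thymus also had more of the widely expressed subunits than the other thymi. In 63 of 74 it was the highest of the 4 thymi, against 25.5% of the 11610 genes tested in thymus. The median ratio to the mean of the 3 others was 1.60 for the subunits and 0.948 for all these genes. The ratio was largest for Ndufc1 (2.56) and Ndufb9 (2.46) of complex I. It was under 1 for Ndufs5, Cox7a2l (0.754), Atp5j (0.896), Atp5g1 (0.946) and Ndufa7 (0.964). The Alb level of this thymus in FPKM was 2.38% of that of the untreated MSM liver. Alb made up 0.562% of the FPKM sum of this thymus and 10.8% of that of the untreated MSM liver. The part of liver, brown fat and muscle RNA in the higher subunit levels was not tested.

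The second comparison asked whether the strains differ. In liver, 1 of 78 members tested was called, Ndufs5, lower in MSM (background 0.51% of 10971 genes called higher and 0.957% lower). At an unadjusted p under 0.05 there were 13, and the median difference of MSM minus B6 was 0.20 for the subunits and 0.01 for all genes, or 0.03 for the subunits and -0.15 for all genes after rescaling to a common sum. Both MSM livers lay above both B6 livers in 29 of 74 subunits and below them in 6, against 20.5% and 22.8% of all genes. The 1 residual degree of freedom of this fit limits what it can call. With 1 liver left out, the fit had no treatment block and 1 liver in 1 strain. Strain and treatment were then not separated, so the call of Ndufs5 has no check by leaving out a library. The median over members was 0.14 to 0.24 in those fits.

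Ndufs5, an accessory subunit of complex I that lies in the intermembrane space, was close to 0 in all MSM libraries. It had 0.00745 and 0.00194 FPKM in the injected and untreated MSM liver and 45.4 and 42.6 FPKM in the B6 livers (-5.48 ± 0.29, limma, adjusted p = 0.00473). In the thymus it had 0.00364 and 0.00197 FPKM in the injected and untreated MSM mouse, 0.0149 FPKM in the injected B6 mouse and 36.9 FPKM in the untreated B6 mouse. The 2 B6 thymi thus differed from each other, and the thymus difference of -2.63 ± 1.13 did not pass (adjusted p = 0.405). The tables also list BC002163, a processed pseudogene of Ndufs5 on another chromosome. Ndufs5 lies at chr4:123712710-123718202 on the minus strand and BC002163 at chr16:42955631-42955949 on the plus strand (mm10, GENCODE M21). The first 150 coding bases of Ndufs5 and the matching bases of the pseudogene are shown because they hold every difference between them. Over the 319 bases of BC002163 the 2 sequences are 99.4% identical and differ by T81C and A105G (Ndufs5 base first, counted from the A of the start codon, in capitals), after which 214 bases in a row are the same.
Ndufs5: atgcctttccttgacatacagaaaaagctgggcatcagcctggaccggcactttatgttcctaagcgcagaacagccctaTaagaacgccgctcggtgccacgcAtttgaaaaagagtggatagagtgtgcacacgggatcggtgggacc
BC002163: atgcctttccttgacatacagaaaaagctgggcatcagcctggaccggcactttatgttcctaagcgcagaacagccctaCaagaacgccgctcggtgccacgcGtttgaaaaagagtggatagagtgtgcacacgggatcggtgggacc
BC002163 had 125 and 115 FPKM in the injected and untreated MSM liver and 29.1 and 35.7 FPKM in the B6 livers, and 34.9 and 62.9 FPKM in the MSM thymi and 45.0 and 1.98 FPKM in the B6 thymi. It was high wherever Ndufs5 was near 0. The sum of the 2 rows was 125 and 115 FPKM in the MSM livers and 74.5 and 78.4 FPKM in the B6 livers, and 34.9 and 62.9 FPKM in the MSM thymi and 45.0 and 38.8 FPKM in the B6 thymi. With the rows summed, an alternative chosen after the data were seen, MSM minus B6 turned to 0.64 ± 0.20 in liver (limma, adjusted p = 0.24) and 0.16 ± 0.30 in thymus (adjusted p = 0.876). Liver minus thymus was then 1.10 ± 0.23 (limma, adjusted p = 0.00712), within the range of the complex I subunits (0.60 to 2.21) and below their median of 1.46. Of the 50-base words of the Ndufs5 transcript, 41.2% also occur in BC002163. How the authors' counting divides fragments between such copies is not given in the sources used here.

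**Figure D4:**
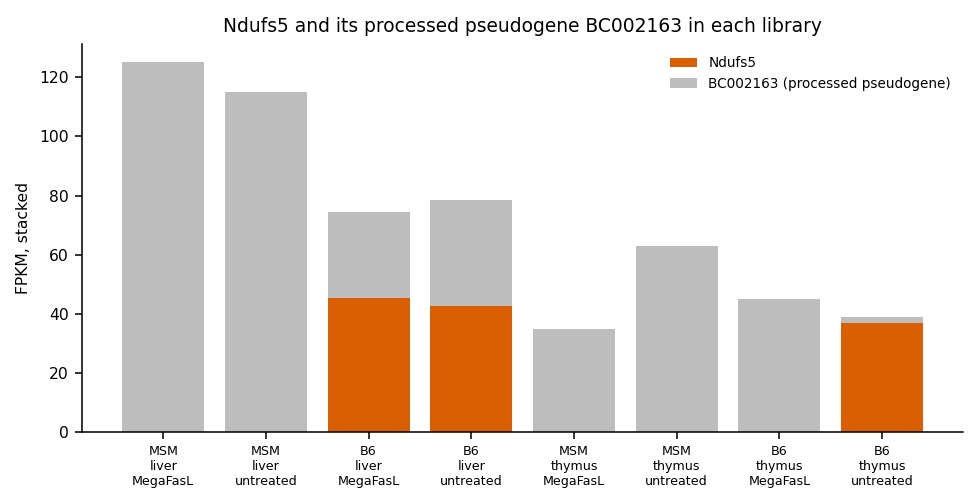
FPKM of Ndufs5 (orange) and of its processed pseudogene BC002163 (grey), stacked, in each library. Ndufs5 is visible only in both B6 livers and the untreated B6 thymus, while the stacked total is never under 34.9 FPKM.

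Among the other subunits the largest strain differences in liver were those of Ndufb7 and Uqcr10, neither of which passed. Ndufb7, an accessory subunit of complex I, had 167 and 164 FPKM in the injected and untreated MSM liver and 70.6 and 93.9 FPKM in the B6 livers (1.02 ± 0.22, adjusted p = 0.131). Uqcr10, a small subunit of complex III, had 427 and 433 FPKM in the MSM livers and 200.3 and 239.8 FPKM in the B6 livers (0.97 ± 0.19, adjusted p = 0.116). The opposite order was seen for Atp5e, the epsilon subunit of ATP synthase, with 283 and 254 FPKM in the MSM livers and 586 and 362 FPKM in the B6 livers (-0.78 ± 0.22, adjusted p = 0.208), and for Cox7a2, with 111 and 125 FPKM in the MSM livers and 191 and 182 FPKM in the B6 livers (-0.66 ± 0.20, adjusted p = 0.228). In each of these genes the strains did not overlap in liver. In Cox7a2l the strains did not overlap in liver either, with the MSM values lower (-0.52 ± 0.20, adjusted p = 0.303).

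In thymus no member was called by limma between the strains (background 0.379% of 11610 genes higher and 0.594% lower), with 16 at an unadjusted p under 0.05. The median subunit difference was 0.41, against 0.03 for all genes, and 69 of 74 were above 0, against 52.9% of all genes. Both MSM thymi lay above both B6 thymi in 32 of 74 subunits and below them in 1, against 23.1% and 22.3% of all genes. The size of the median depended on which MSM thymus was in the fit. Over the members tested it was 0.39 with all libraries, 0.12 without the untreated MSM thymus and 0.67 without the injected MSM thymus. The fits with 1 library left out had no treatment block. In these 2 fits 1 MSM thymus of 1 treatment was set against B6 thymi of both treatments, so strain and treatment were not separated. Ndufs7, an iron-sulphur subunit of complex I, had 34.6 and 51.6 FPKM in the injected and untreated MSM thymus and 19.7 and 13.6 FPKM in the B6 thymi (1.32 ± 0.31, adjusted p = 0.162). Cox8b (-1.61 ± 0.29, adjusted p = 0.0807) and Cox6b2 (-1.73 ± 0.38, adjusted p = 0.146) were lower in both MSM thymi than in both B6 thymi without passing. Whether the strain difference differed between the tissues was tested on each mouse's own liver minus thymus value, and no member passed by limma (background 0.109% higher and 0.256% lower, 5 members at an unadjusted p under 0.05). The median over members was -0.23, against -0.04 over all genes. Without the untreated MSM mouse it was 0.20 over members, in a fit with strain as the only factor.

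The third comparison set MegaFasL-injected against untreated mice. It was not tested within a tissue, since the injected and the untreated libraries are in separately normalised tables, so that treatment and table cannot be told apart. Libraries were centred by their median ratio, and a gene counted as changed if it moved 2-fold or more the same way in MSM and B6. No member met this in liver, against a background of 1.64% of 10971 genes higher and 1.24% lower, nor in thymus, against 0.276% and 0.422% of 11610 genes. The median subunit change in liver was 0.14 in MSM and -0.14 in B6 on the log2 scale. In thymus it was -0.70 in MSM and -0.14 in B6.

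In liver the changes of the 74 subunits ran from -1.06 (Ndufs6) to 0.95 (Ndufc1) in MSM and from -0.79 (Ndufa1) to 0.63 (Atp5e) in B6, and 66 of 74 in MSM and 71 of 74 in B6 were within 1.5-fold. Ndufc1, a small membrane subunit of complex I, had 141 FPKM in the injected and 71.0 FPKM in the untreated MSM liver, and 142 FPKM in the injected and 92.1 FPKM in the untreated B6 liver. Uqcrq had 435 FPKM in the injected and 384 FPKM in the untreated MSM liver, and 452 FPKM in the injected and 404 FPKM in the untreated B6 liver. Only Ndufs6, a zinc-binding accessory subunit of complex I, moved 2-fold or more in 1 strain: 62.3 FPKM in the injected and 128 FPKM in the untreated MSM liver, against 123 FPKM in the injected and 139 FPKM in the untreated B6 liver. In thymus 16 of 81 members were down 2-fold or more in the injected relative to the untreated MSM mouse (background 9.23%). Of these, 13 were widely expressed subunits and 3 the isoforms Cox7a1, Cox6a2 and Cox8b. Cox6a2 reached the filter only through the untreated MSM thymus, so its direction was set by it. The change of Ndufs6 was -1.74 in MSM and -0.06 in B6, that of Uqcr11 -1.40 in MSM and -0.17 in B6, and that of Ndufb8 -1.28 in MSM and -0.16 in B6. The untreated library in each of these MSM changes is the one with the high brown fat and muscle markers, and their part was not tested. In B6 thymus Ndufs5 was down 2-fold or more, while BC002163 had 45.0 FPKM in the injected and 1.98 FPKM in the untreated mouse. Ndufa3 was up 2-fold or more there (155 FPKM in the injected and 61.0 FPKM in the untreated mouse).

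**Figure D5:**
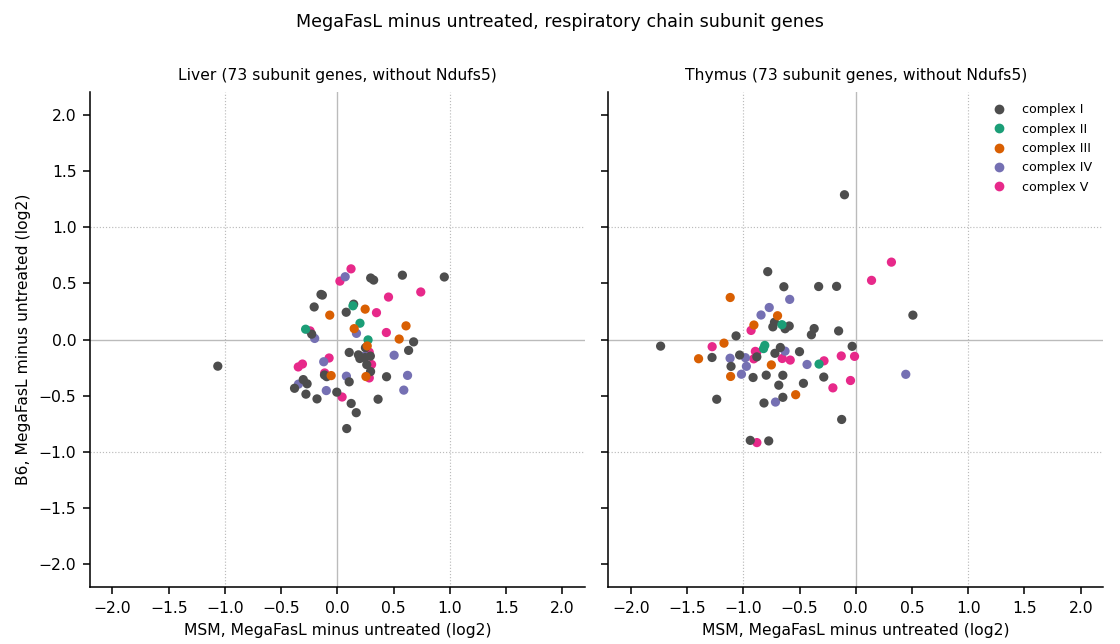
Injected minus untreated change, in log2(FPKM + 1) after centring, of 73 of the 74 subunit genes in MSM (horizontal) and B6 (vertical), in liver and thymus. Dotted lines mark 2-fold. The liver points scatter around 0, while most thymus points lie left of 0 in MSM and around 0 in B6.

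Whether the change between injected and untreated mice differed between liver and thymus was tested on each mouse's own liver minus thymus value, in which the table cancels. No member passed by limma (background 0.0155% of 12880 genes higher and 0.0233% lower, 5 members at an unadjusted p under 0.05). The median over members was 0.42, against 0.01 over all genes. Without the untreated MSM mouse it was 0.10 over members, in a fit with treatment as the only factor.

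Other genes around the chain were read for context, with the deposited scale and the liver minus thymus test. Rescaling lowers these values like those of the members, so each group is given also after rescaling to a common sum, where 16.2% of all genes were called higher and 56.6% lower, and with its median relative to that of all genes. Of 6 tested subunits and partners that the name pattern does not take, 5 were higher in liver, among them Cyc1, cytochrome c1 of complex III (2.16 ± 0.23), and Cycs, the somatic cytochrome c (1.36), along with Ndufab1 (1.20), Usmg5 (1.73) and 2010107E04Rik (1.15). Atpif1, the inhibitor of ATP synthase, was the one lower in liver, with 102, 61.8, 19.8 and 32.6 FPKM in the livers and 108, 81.0, 63.4 and 79.3 FPKM in the thymi (-0.84 ± 0.29, adjusted p = 0.0478). The testis cytochrome c gene Cyct was listed at 0 in all libraries. This group's median of 1.28 lay 1.41 above that of all genes, and 1.34 above it after rescaling to a common sum, where only Cyc1 remained higher and Atpif1 lower. Of 47 assembly factors, 28 were higher and none lower in liver, with a median of 0.84, which turned to -0.06, with 9 higher and 11 lower, after rescaling. Relative to all genes the assembly factors lay 0.97 higher as deposited and 1.04 higher rescaled, and Ndufaf1, a complex I assembly factor, was higher on both scales (2.01 and 1.08). Of 14 citric acid cycle genes, 8 were higher and none lower (median 1.12), against 3 higher and 3 lower after rescaling (median 0.07). Relative to all genes the median was 1.25 higher as deposited and 1.18 higher rescaled. Suclg2, a GTP-forming succinyl-CoA ligase subunit, differed by 3.30 and Fh1, fumarase, by 2.14, while Cs, citrate synthase, differed by 0.11, without passing. All 9 antioxidant enzymes were higher in liver (median 2.57), and 8 of them also after rescaling (median 1.66), with medians 2.70 and 2.76 above that of all genes. Cat, catalase, differed by 5.19 and Sod2, the mitochondrial superoxide dismutase, by 2.65.

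Carriers did not move as 1 group: of 9 tested, 4 were higher and 4 lower in liver. Slc25a4, the adenine nucleotide carrier of heart and muscle, had 9.15, 6.39, 6.15 and 7.41 FPKM in the livers and 69.2, 93.7, 52.5 and 54.2 FPKM in the thymi (-3.02 ± 0.22). Its widely expressed relative Slc25a5 had 378, 344, 314 and 288 FPKM in the livers and 252, 216, 166 and 179 FPKM in the thymi (0.71 ± 0.17). Ucp2, an uncoupling protein homologue found in immune cells, differed by -2.99. After rescaling to a common sum none of the 9 was higher and 5 were lower, against 16.2% and 56.6% of all genes. Slc25a5 turned to -0.36. The carriers' median lay 0.22 above that of all genes as deposited and 0.13 above it rescaled. Of 16 tested regulators of mitochondrial biogenesis, 4 were higher and 4 lower in liver: Ppara (5.02), Ppargc1a (2.58), Tfb1m (1.06) and Tfb2m (1.09) higher, and Nrf1 (-2.05), Gabpb1 (-1.94), Myc (-1.70) and Pprc1 (-0.97) lower. After rescaling, 2 regulators were higher and 8 lower, against the same shares of all genes. The regulators' median lay 0.18 above that of all genes as deposited and 0.27 above it rescaled. Ppargc1a had 0.0462 to 0.792 FPKM in the thymi and reached the filter only through the liver, so its direction in the test was set by it. Between the strains none of the genes of these lists was called in either tissue by limma. The 6 subunits and partners outside the name pattern were all above 0 for MSM minus B6, with medians of 0.70 in liver and 0.61 in thymus.

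Between injected and untreated livers 2 of these 16 regulators were up 2-fold or more in both strains, Ppara and Ppargc1b. The background was 1.64% of 10971 genes. Ppara, the receptor that drives fatty acid oxidation genes, had 100.03 FPKM in the injected and 31.4 FPKM in the untreated MSM liver, and 89.6 FPKM in the injected and 39.0 FPKM in the untreated B6 liver. Ppargc1b, a coactivator of mitochondrial genes, had 7.18 FPKM in the injected and 1.84 FPKM in the untreated MSM liver, and 2.41 FPKM in the injected and 0.529 FPKM in the untreated B6 liver. Its relative Ppargc1a had 29.1 FPKM in the injected and 2.40 FPKM in the untreated MSM liver, and 7.10 FPKM in the injected and 3.11 FPKM in the untreated B6 liver, a change of 3.12 in MSM and 0.92 in B6. Of 46 assembly factors 1 was down 2-fold or more in both strains, against a background of 1.24% of 10971 genes. It was Sco2, a copper chaperone for complex IV (-1.19 in MSM and -1.12 in B6). The median subunit change in these same livers was the 0.14 in MSM and -0.14 in B6 given above, and with 1 mouse per group none of these values has a replicate check.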

How the data were processed

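Polyadenylated RNA of 8 libraries (TriPure, TruSeq kit, per the labels' protocols) was processed by the authors with TopHat and Cuffdiff 2.2.1 on mm10, per the submitters' processing notes. The authors deposited gene FPKM in 2 tables, 1 for MegaFasL-injected and 1 for untreated mice, normalised separately; annotation and settings are not given in the sources used here. Levels are compared between treatments only as described. The confidence bounds that the authors deposited beside each FPKM were not used for tests: the lower bound was 0 for every member. Depth is unknown and was estimated from low values of 2015 genes with a single transcript, so no count test was run. The scale was chosen to make the share of values within 0.1 of whole fragments as large as possible. That share was 55.3% to 60.7%, whereas 20% is the chance level at a scale fixed beforehand. No chance level was computed for a chosen scale.

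Analyses used log2(FPKM + 1), genes averaging 1 FPKM or more within a tissue, and limma 3.58.1 (R 4.3.3) with mean trend, two-sided, with Benjamini-Hochberg adjustment over all genes tested and a threshold of 0.05. The added 1 understates differences of low genes. Liver minus thymus used mouse as block. MSM minus B6 used treatment as block within each tissue. Tissue interactions were fitted on the liver minus thymus difference of each mouse. The strain and interaction fits have 1 residual degree of freedom, and since no group was replicated their p-values measure how differences vary between treatments or strains, not between like mice. Injected minus untreated was centred by the median ratio and not tested. The mouse block rests on the series' statement that both tissues came from the same mouse. Gene positions, coding sequences and 50-base words shared with other genes came from GENCODE M21 (mm10), in which all 85 members were found at the locus the tables give. For each gene the shortest transcript among those with the longest coding sequence was taken. Older symbols of list genes were matched through RefSeq synonyms. Promoter motifs were not analysed here. The code was tested on simulated data. The members, the gene lists and the rule for named genes were chosen with earlier results of these data known. All members could be named, with levels for the highest 2 per complex, those called or with the largest differences, and the isoform pairs. Cs, Slc25a5, Ppargc1b, Sco2, Tfb1m, Tfb2m, Myc, Pprc1 and the members Ndufb8 and Ndufs7 were named after their values were seen. Alternatives were added values of 0.1 and 5, other filters, scalings and moderation, no block, and leaving out each library or mouse.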

Additional observations from a re-analysis of the deposited data

How the results depend on the processing

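For liver minus thymus, 66 to 73 members were higher and 2 lower when 1 mouse was left out. The count of members higher stayed within 1.5 times under every alternative but the rescalings to a common sum (19 higher, 5 lower) and to that sum without Lars2, Rn45s and small RNA genes (12 higher, 7 lower), which also move the median of all genes. A filter at 5 FPKM left 1 lower. Under the first rescaling the direction turned for 10 members, 7 of them called as deposited: Atp5h (-0.32), Atp5sl (-0.12), Ndufa11 (-0.058), Ndufa12 (-0.13), Ndufb3 (-0.46), Ndufs4 (-0.12) and Ndufv2 (-0.044). The others, not called as deposited, were Atp5g2 (-0.65), Atp5s (-0.13) and Cox7a1 (-0.85). Under the second it turned for 17 members, the same 3 (-0.86, -0.31 and -1.03 in that order) and Atp5e (-0.065), Atp5h (-0.53), Atp5sl (-0.32), Ndufa11 (-0.25), Ndufa12 (-0.34), Ndufa8 (-0.072), Ndufb3 (-0.66), Ndufb7 (-0.026), Ndufc1 (-0.022), Ndufc2 (-0.045), Ndufs4 (-0.32), Ndufs8 (-0.042), Ndufv2 (-0.25) and Uqcrh (-0.090). Without the replicate block, 71 members were higher and 2 lower in liver, 1 was lower in MSM liver and none was called in thymus, so the block changed no count of calls by over 1.5 times. In MSM minus B6 in liver, summing Ndufs5 with BC002163 left 0 members called. With 1 library or mouse left out, the strain and interaction fits kept only the factor compared. Strain and treatment were then not separated, and the lone library of a strain is assumed to vary like the others. Ndufs5 turned to 0.64 in liver and 0.16 in thymus when summed. Cox7a1 turned to -0.15 in liver without the untreated MSM library. In thymus the strain comparison called 2 higher and 2 lower with 0.1 added, and 1 lower with a filter at 5 FPKM. It called 2 lower with robust moderation. It also called 2 lower after liver RNA was subtracted from the untreated MSM thymus (chosen after seeing the data). For the change between injected and untreated mice in liver minus that in thymus, Ndufs5 ran between -0.097 without the injected B6 mouse and 5.41 without the injected MSM mouse, and Cox7a1 between -0.43 without the untreated MSM mouse and 4.99 without the untreated B6 mouse. The count of members lower in both injected thymi was 1 with 0.1 added and 4 at 1.5-fold, and both interactions called 0 members under each alternative run. The causes were not tested. Levels of 1 or 2 FPKM on short transcripts rest on very few fragments, and strain and treatment each rest on single mice.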
